A study of Mus musculus with 9 samples.

Results

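The genes described here are 50 cell cycle and DNA replication genes: 15 that make, load or copy DNA in S phase, 17 that act in mitosis, 11 cyclins and cyclin-dependent kinases (Cdks), 3 transcription factors and 4 Cdk inhibitors. They were taken by gene symbol from the 2 tables of normalized counts that the authors deposited, each with 35013 gene symbols. All 50 were found in both tables, and all 50 had a mean normalized count of at least 10 over the 6 libraries of each table. Bulk RNA-Seq was done by the authors on poly-A RNA of epithelial cells sorted from the small intestine of mice aged 4 to 6 weeks. All mice carried Neurog3Cre-FoxO1 f/f; Rosa26tdtomato (NFKO), in which Cre, driven by the endocrine progenitor factor Neurog3, removes FoxO1 and turns on the red Tomato reporter. Descendants of Neurog3-expressing cells were sorted as CD24negTomato+ or CD24+Tomato+ by the surface protein CD24, and the other epithelial cells as Tomatoneg. Each population has 3 replicates, which makes 9 libraries. Tomatoneg cells bear the same floxed allele and come from the same kind of mice. No Tomato+ cells with intact FoxO1 are in the series, so lineage and FoxO1 loss cannot be told apart. The first table holds CD24negTomato+ and Tomatoneg libraries, and the second holds CD24+Tomato+ and the same Tomatoneg libraries, so the 2 comparisons share their control samples.

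In the crypts of the intestine, stem cells and their transit-amplifying daughters divide rapidly, and most cells stop dividing as they become absorptive or secretory cells. Cyclin-Cdk pairs release E2F factors, which turn on the genes for licensing and copying DNA before S phase. The mitotic genes follow later, through FoxM1 and the DREAM/B-Myb complexes, and Cdk inhibitors such as p21, p27 and p57 hold cells out of the cycle. In bulk libraries, fewer dividing cells and less cell cycle RNA per cell cannot be told apart.

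Depth, estimated by taking the most common low value of a library as 1 read, was 19157905 to 39233080 reads per library and lowest in Tomatoneg, and 3 reads corresponded to a normalized count of 2.10 to 4.29, which covers counting error only. Epcam, an epithelial surface protein, measured 20915 to 37673 in every library. Foxo1, the deleted gene, was 467, 274 and 371 in CD24negTomato+ replicates 1, 2 and 3 and 695, 518 and 424 in Tomatoneg, with ranges that overlapped (log2 fold change -0.56, adjusted p = 0.427). It was 319, 193 and 201 in CD24+Tomato+ against 748, 529 and 444 in Tomatoneg (log2 fold change -1.27, adjusted p = 0.0579, and 0.0219 with the replicate number as a block). Which exons lie between the loxP sites is not given in the sources used here, so these whole-gene values are an incomplete check of the deletion. Cd24a was 25857, 30949 and 28118 in CD24+Tomato+ against 3170.3, 5914 and 3678 in Tomatoneg. In the CD24negTomato+ comparison, scaled separately, it was 993, 2054 and 1689 against 2944, 5782 and 3506 in Tomatoneg. It was thus above Tomatoneg in CD24+Tomato+ and below it in CD24negTomato+. Neurog3 was 1319, 1345 and 1364 in CD24+Tomato+ against 102, 149 and 182 in Tomatoneg (log2 fold change 3.25, adjusted p = 0.00231). In the other table it was 14.6, 19.6 and 41.2 in CD24negTomato+ against 80.2, 123 and 147 in Tomatoneg, below every Tomatoneg library (log2 fold change -2.26, adjusted p = 0.126).

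In CD24negTomato+ cells all 15 replication genes and 16 of 17 mitosis genes had a negative fold change against Tomatoneg cells. The same held for 6058 of all 13420 genes tested. Of the members, 4 replication genes and 0 mitosis genes passed the test (0.32% of all genes tested were lower). The 4 fell to 0 when CD24negTomato+ replicate 1 or replicate 2 was left out. In CD24+Tomato+ cells 0 genes of either role passed (4.89% of all genes tested were lower and 8.02% higher). The median log2 fold change of the 50 members was -1.40 in CD24negTomato+, where the median of all 13420 genes tested was 0.080. In CD24+Tomato+ the median of the members was 0.094, beside 0.16 for all 13874 genes tested. Fold changes are differences of log2(normalized count + 1), which understates changes of low genes, and each gene was tested with limma, two-sided, with p values adjusted by Benjamini-Hochberg over all genes of a table and a threshold of 0.05. The difference between the 2 Tomato+ populations was not tested, since their tables were scaled separately.

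**Figure D1:**
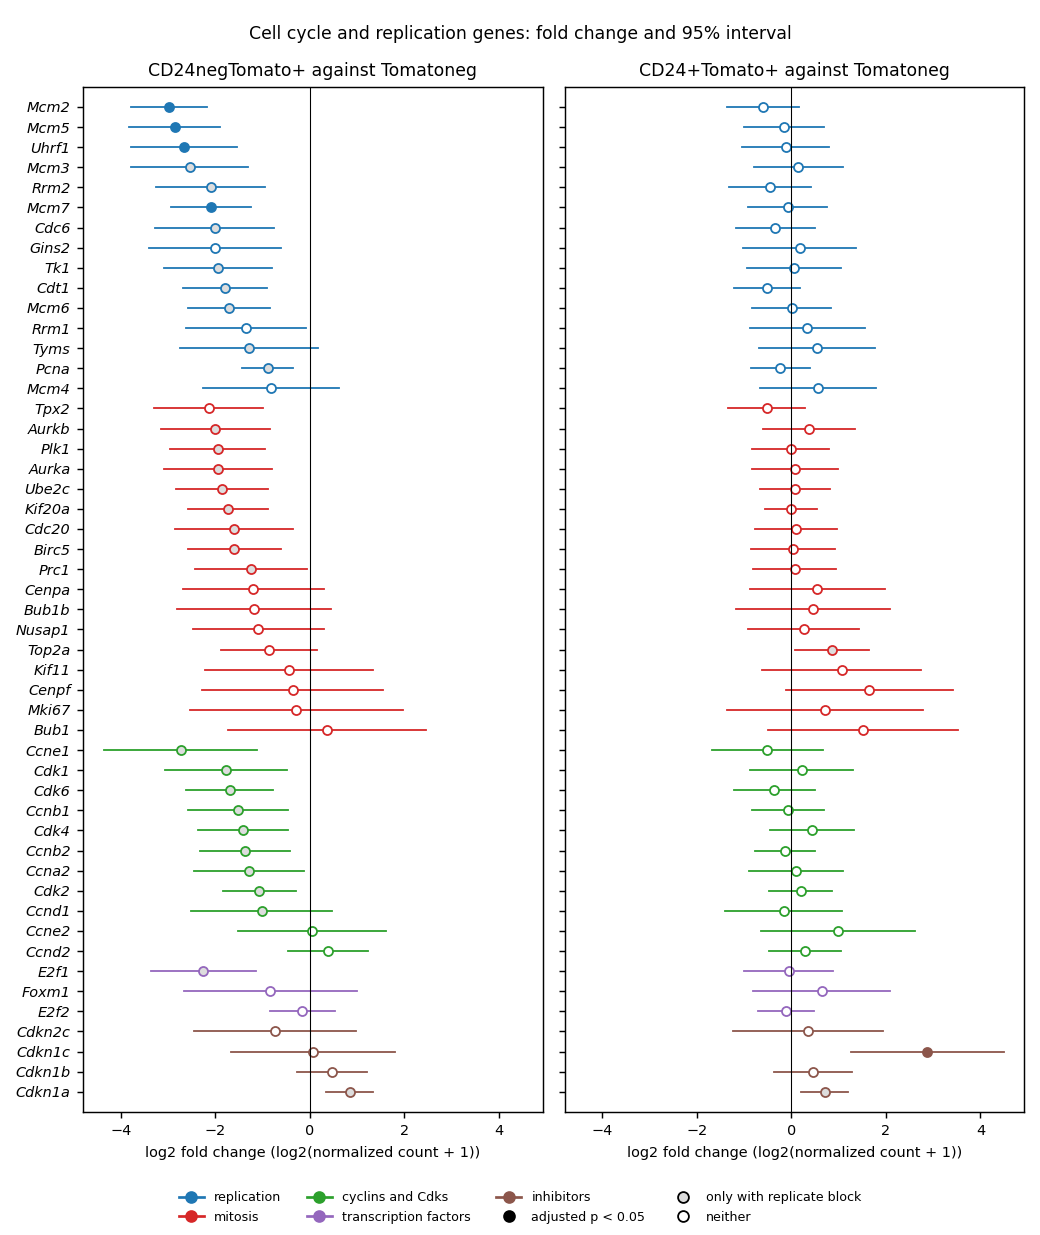
Log2 fold change of each of the 50 members against Tomatoneg (horizontal axis; points with 95% interval from limma), in CD24negTomato+ (left) and CD24+Tomato+ (right), colored by role, with 3 libraries a group. Filled points passed the threshold, grey points passed only with the replicate number as a block and open points neither. On the left 44 of 50 points lie below 0, and on the right 18 of 50. Of all genes tested, 6058 of 13420 and 5803 of 13874 had a negative fold change.

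In CD24negTomato+ cells, 4 of the 50 members were significantly lower (8.0% of members, against 0.32% of all genes tested) and 0 higher (0.999% of all genes tested, and 1.32% in either direction). At an unadjusted p under 0.05, 31 members were lower and 1 was higher, against 915 and 1377 of all 13420 genes tested. The 4 were Mcm2, Mcm5, Mcm7 and Uhrf1, all of S phase. Same-numbered libraries shared part of their deviation from the group means, and with the replicate number as a block 30 members were lower (2.96% of all genes tested) and 1 higher (4.34% of all genes tested). In 27 members every CD24negTomato+ library lay below every Tomatoneg library, as in 10.6% of all genes tested. The reverse held for 1 member, Cdkn1a, and for 14.7% of all genes tested. Of the 50 members, 36 were lower in all 3 same-numbered pairs, against 23.6% of all genes tested, and 1 was higher, against 28.7%. The count of 4 rested on each library in turn: it was 0 without CD24negTomato+ replicate 1 or replicate 2, 2 without CD24negTomato+ replicate 3, 25 without Tomatoneg replicate 1, and 1 without Tomatoneg replicate 2 or replicate 3. Besides the numbers in their titles, which run on between replicates, samples have a number at the end of their descriptions, and in these replicate 1 of every population stands apart from replicates 2 and 3. What that number marks is not stated, and each group has 1 such library. The median over the members was -1.56 in pair 1 alone, -1.50 in pair 2 and -1.57 in pair 3. Making library totals equal moved the median of all genes to -0.12 and quantile normalization moved it to -0.047, with member medians of -1.60 and -1.44.

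**Figure D2:**
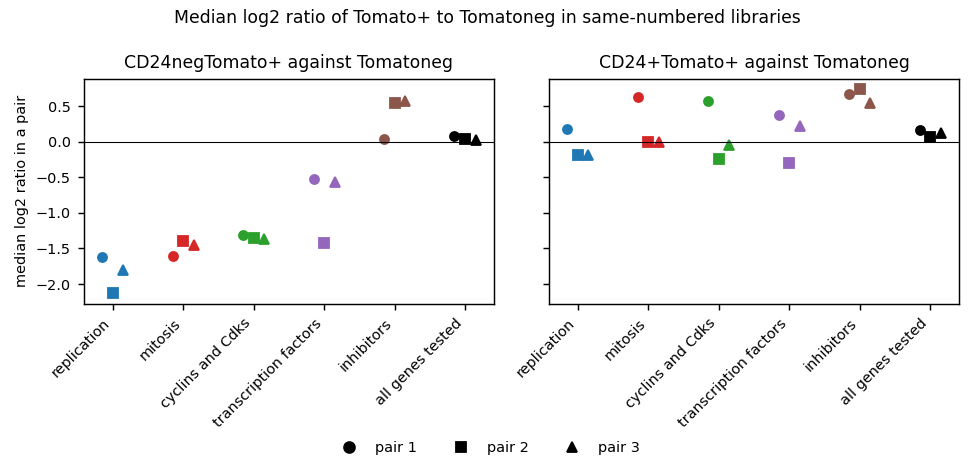
Median log2 ratio of Tomato+ to Tomatoneg (vertical axis) over the members of each role and over all genes tested, computed within each pair of same-numbered libraries, for CD24negTomato+ (left) and CD24+Tomato+ (right). On the left the replication medians are -1.62, -2.13 and -1.80 in pairs 1, 2 and 3, while the medians of all genes lie between 0.022 and 0.082.

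All 15 replication genes had a negative fold change in CD24negTomato+, with a median of -2.01. With the block 12 of them passed, where 2.96% of all genes tested were lower. In 12 the groups did not overlap, where 10.6% of all genes tested were lower without overlap. Mcm2, a subunit of the MCM helicase that unwinds DNA at the fork (chr6:88883474-88898780, minus strand), had normalized counts of 196, 198 and 326 in the CD24negTomato+ libraries and 2457, 1301 and 1950.3 in the Tomatoneg libraries, here and below in the order of replicates 1, 2 and 3. The groups were far apart, with Tomatoneg replicate 1 the highest library, and the mean was 7.93 times higher in Tomatoneg. Mcm2 fell by 2.98 on the log2 scale (SE 0.34, adjusted p = 0.0118).

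Mcm5, another subunit of the same helicase (chr8:75109569-75128439, plus strand), was 198, 254 and 510.5 in CD24negTomato+ against 1782, 1805 and 3100.2 in Tomatoneg. Replicate 3 was the highest in both populations, and the highest CD24negTomato+ library stayed well under the lowest Tomatoneg library. The log2 fold change of Mcm5 was -2.86 (SE 0.41, adjusted p = 0.0232). For Mcm7 (chr5:138164583-138172422, minus strand), the values were 299.6, 387 and 545 against 1151, 1698 and 2533, with replicate 3 highest in both populations and no overlap, and the log2 fold change was -2.09 (SE 0.37, adjusted p = 0.046). Mcm7 hosts the microRNAs Mir25, Mir93 and Mir106b and overlaps Cops6 and Ap4m1 on the other strand. Whether the libraries kept strand is not given in the sources used here.

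Uhrf1, which brings the maintenance DNA methyltransferase to newly copied DNA (chr17:56303321-56323486, plus strand), was 131, 222 and 341 against 815, 1413 and 2214. Again replicate 3 was highest in both populations and the groups did not overlap (log2 fold change -2.66, SE 0.48, adjusted p = 0.0494). Mcm3, with 89.1, 168 and 289 against 543, 1074 and 1498, had a fold change of similar size (-2.54, SE 0.54) that missed the threshold (adjusted p = 0.0698, and 0.00631 with the block). Pcna, the sliding clamp of DNA polymerase, was 1209, 1034 and 1452 against 2019.7, 2215 and 2610.3. Its groups did not overlap, but the difference was much smaller, with a log2 fold change of -0.89 (adjusted p = 0.11, and 0.0324 with the block).

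The remaining replication genes have fold changes from -2.10 (Rrm2) to -0.82 (Mcm4). They include Cdc6 and Cdt1, which load the helicase at origins, Gins2, which activates it, and the makers of nucleotides Rrm1, Rrm2, Tyms and Tk1. Mcm6, Cdc6, Cdt1, Rrm2, Tyms and Tk1 passed with the block (adjusted p from 0.0133 for Mcm6 to 0.0466 for Cdc6). Mcm4, Gins2 and Rrm1 did not, with adjusted p = 0.292, 0.0611 and 0.0535. Cdt1 overlaps Gm20388 on the same strand. For Mcm4 the libraries were 169.6, 169 and 366 against 158, 722 and 507, so that Tomatoneg replicate 1 was the lowest library of all.

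**Figure D3:**
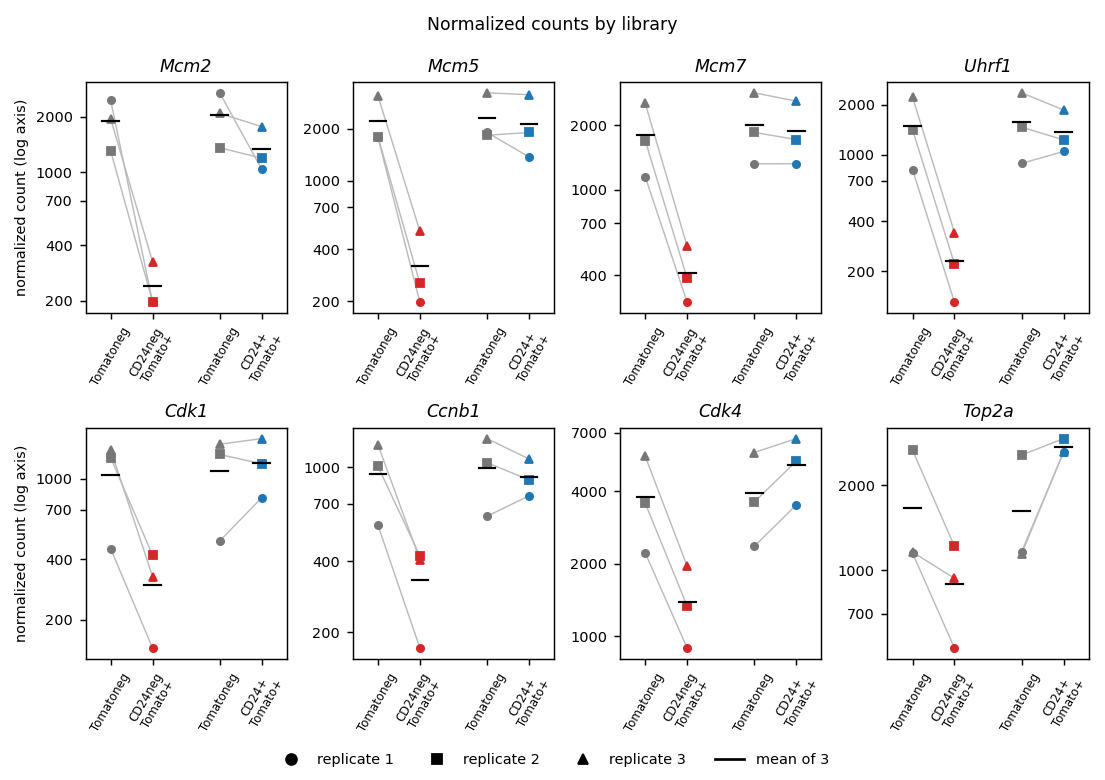
Normalized counts (vertical log axis) of Mcm2, Mcm5, Mcm7, Uhrf1, Cdk1, Ccnb1, Cdk4 and Top2a in each library, with grey lines joining same-numbered libraries and bars at the mean of 3. In each panel the left pair comes from the CD24negTomato+ table and the right pair from the CD24+Tomato+ table; every grey line falls in the left pairs, from 2457, 1301 and 1950 to 196, 198 and 326 for Mcm2.

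The mitosis genes were lower by a smaller median, -1.25, with 16 of 17 fold changes negative. Of them 0 passed the threshold (0.32% of all genes tested were lower) and 8 were lower with the block (2.96% of all genes tested). These 8 were Plk1, Aurka and Aurkb, kinases that drive entry into and passage through mitosis; Birc5, the partner of Aurkb; Kif20a and Prc1, of the central spindle; and Cdc20 and Ube2c, which let the anaphase-promoting complex destroy cyclin B. Their fold changes ran from -1.998 (Aurkb) to -1.25 (Prc1), and their block-adjusted p from 0.00856 (Ube2c) to 0.0491 (Prc1). Kif20a overlaps Cdc23 on the other strand. In 6 of the 8 the groups did not overlap, the exceptions being Cdc20 and Prc1 (10.6% of all genes tested were lower without overlap). Tpx2, a spindle assembly factor, had the most negative fold change of the group (-2.14) and did not overlap, with 108, 326 and 230.5 against 1419.6, 801 and 622, but missed the threshold with the block as well (adjusted p = 0.0611). Cenpa, the histone of the centromere, Bub1b, of the spindle checkpoint, and Nusap1, of the spindle, had fold changes of -1.19, -1.18 and -1.09 with overlapping groups.

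Mki67, the widely used proliferation marker, which coats mitotic chromosomes, was 576, 1715 and 376 in CD24negTomato+ and 1749, 2104 and 182 in Tomatoneg, so that the lowest library of all was Tomatoneg replicate 3 and the groups overlapped fully. Its log2 fold change was -0.28 (SE 0.97, adjusted p = 0.906), and -1.41 without Tomatoneg replicate 3. Top2a, the topoisomerase that untangles sister chromosomes, was 528, 1213 and 934 against 1148, 2671 and 1158. It was lower in each same-numbered pair, although CD24negTomato+ replicate 2 exceeded Tomatoneg replicates 1 and 3 (log2 fold change -0.86, adjusted p = 0.362, and 0.076 with the block). Bub1, a kinase of the spindle checkpoint, had the only positive fold change of the 17, 0.37 (adjusted p = 0.862), on values of 54.05, 108 and 69.6 against 13.6, 154 and 86.1. Tomatoneg replicate 1 alone was below the CD24negTomato+ libraries. Without it the fold change was -0.63, and with quantile normalization it was -0.10.

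Long transcripts were unevenly represented between libraries. For each gene, a library was set against the mean of the other libraries of its group, and medians of these deviations were compared. Within Tomatoneg replicate 3, genes with a longest coding transcript of 6000 bases or more stood 1.04 log2 units lower than genes under 2000 bases. In Tomatoneg replicate 1 they stood 0.97 higher. In CD24negTomato+ replicates 1, 2 and 3 the same difference was 0.41, 0.17 and -0.56, and in CD24+Tomato+ it was 0.91, -0.18 and -0.72. A group of 6 members was over 1 log2 unit lower in Tomatoneg replicate 3 than in the mean of the other Tomatoneg libraries: Mki67 (10061 bases), Cenpf (11130), Kif11 (4819), Nusap1 (3526), Ccne2 (3006) and Cdkn1c (1901). None of these 6 was lower in CD24negTomato+ with the block. They were picked for a low Tomatoneg library, which by itself lessens a fall, so nothing is drawn from that. Of the 50 members, 40 were higher in Tomatoneg replicate 3 than in the mean of the others. Of the 4 members of 6000 bases or more, Cdk6 (11525 bases) was 0.35 log2 units lower there and passed in CD24negTomato+ with the block, and Ccnd2 (6330 bases) was 0.72 higher there. Top2a (5221 bases) was 0.60 lower there, and Bub1 (3421 bases) was 0.87 higher there and 2.996 lower in Tomatoneg replicate 1. When values were centred on genes of like length within each library, an adjustment chosen after the data were seen, 6 members were lower without the block and 32 with it. Calls over all genes, in either direction, also rose with centring, from 1.32% to 2.04% without the block and from 7.30% to 8.13% with it.

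**Figure D4:**
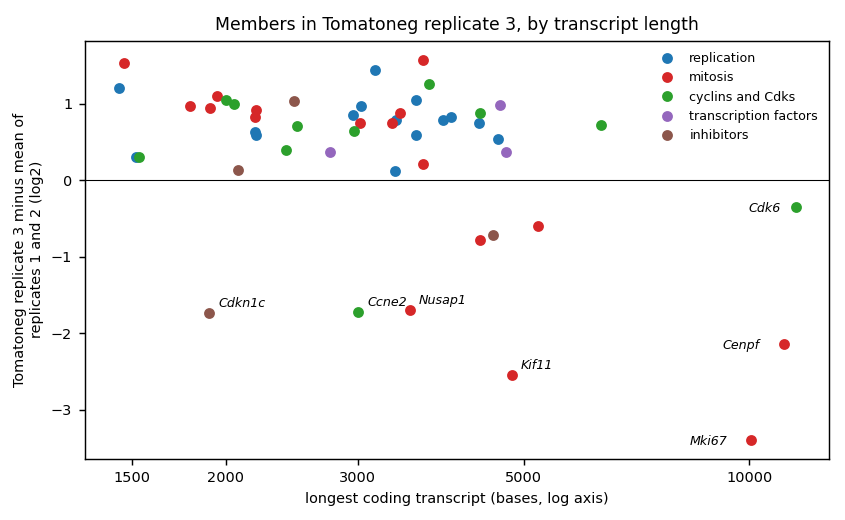
Each member's log2 value in Tomatoneg replicate 3 minus the mean of Tomatoneg replicates 1 and 2 (vertical axis) against its longest coding transcript in bases (horizontal log axis), colored by role. Of the 50 points 40 lie above 0, while Mki67 (10061 bases) and Cenpf (11130 bases) lie at -3.39 and -2.14.

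Of the 11 cyclins and Cdks, 9 had a negative fold change in CD24negTomato+ (median -1.38). Of the 11, 0 passed the threshold and 9 passed with the block, where 0.32% and 2.96% of all genes tested were lower. Cdk1, the kinase of mitosis, was 145, 418 and 327 against 450.3, 1271 and 1392. All CD24negTomato+ libraries lay below all Tomatoneg libraries, the lowest of which was replicate 1 (log2 fold change -1.77, adjusted p = 0.166, and 0.0168 with the block). Ccnb1, its cyclin partner, was 172, 422 and 406 against 568, 1007 and 1240.4, likewise without overlap (log2 fold change -1.53, adjusted p = 0.149, and 0.0218 with the block). Ccnb2 and Ccna2 showed fold changes of -1.38 and -1.29.

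Among the genes of the G1 to S transition, Ccne1, the cyclin that activates Cdk2, had the largest fold change, -2.73 (SE 0.70, adjusted p = 0.106, and 0.0286 with the block). Its values were low and spread, 19.9, 29.5 and 106 against 192, 234 and 439, and did not overlap. Cdk4, Cdk6 and Cdk2 had fold changes of -1.42, -1.70 and -1.07, and all passed with the block (adjusted p = 0.00784, 0.0405 and 0.0493). The D cyclins, which pair with Cdk4 and Cdk6, had fold changes of opposite sign. Ccnd1 was 681, 1486 and 2487 against 1121, 3813 and 4933, lower in each pair but with overlapping ranges, and replicate 1 was low in both populations (log2 fold change -1.02, adjusted p = 0.453, and 0.0309 with the block). Ccnd2 was 3294, 3605 and 1973 against 1383, 2488 and 3058, lower in pair 3 only (log2 fold change 0.38, adjusted p = 0.622). Ccne2 had a fold change of 0.041, with a 95% interval of -1.53 to 1.61.

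E2f1, an activator of S phase genes, was 34.1, 36.1 and 69.7 in CD24negTomato+ and 200.1, 193 and 254 in Tomatoneg. The groups were well separated (log2 fold change -2.25), and E2f1 passed with the block only (adjusted p = 0.0702, and 0.0388 with the block). E2f2, of the same family, was 1858, 2211 and 2756 against 1712, 3102 and 2963, with a fold change near 0 (-0.16, 95% interval -0.85 to 0.53). Foxm1, which activates mitotic genes, was 79.9, 236 and 362 against 116, 634 and 537, lower in each pair and widely spread (log2 fold change -0.84, adjusted p = 0.156 with the block). Foxm1 overlaps Tex52 and Gm44596 on the same strand.

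Promoter sequences of the members were compared by role, as a description only. The roles were set by gene function and not by fold change, and whether the letters bear on the fold changes was not tested. RefSeq promoters of the GRCm38.p6 build, from 250 bases before to 50 bases after a transcription start, were on hand for 39 of the 50 members. The mouse table holds 32851 promoters. Of the 45 promoters of members, 37 had bases after the start that were found in an annotated transcript of the gene. A member counted if any of its promoters held the letters (45 promoters for the 39 members), whereas the share of all promoters counts each promoter. The 2 measures are therefore not quite alike, and the first can only be raised by extra promoters. E2F letters (TTTCCCGC, TTTGGCGC, TTTGCCGC or TTTCGCGC on either strand) were found in 7 of 13 replication genes with a promoter and in 2.26% of all promoters, and in 0 of 14 mitosis genes. The core of the cell cycle genes homology region, CHR (TTTGAA on either strand), the site of the DREAM and B-Myb complexes, was in 11 of 14 mitosis genes, in 1 of 13 replication genes and in 17.9% of all promoters. CCAAT, the letters bound by NF-Y, was found on either strand in 12 of 14 mitosis genes, 9 of 13 replication genes and 37.4% of all promoters. In the 250 bases before the start alone, CHR was in 6 of 14 mitosis genes and in 16.0% of all promoters, and the E2F letters were in 5 of 13 replication genes, without Mcm3 and Cdt1, and in 1.86% of all promoters. These matches are letters in a window and were not tested as sites, and overlapping matches were each counted. The stretches below end before the first annotated exon, run 5′ to 3′ on the strand of the gene and have the motif letters in capitals.

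Mcm5 and Mcm6 show the E2F letters of replication genes, read on both strands where matches overlap, and Mcm2 is the replication gene with CHR letters and no E2F letters. They lie at chr8:75109349-75109458, plus strand (Mcm5), chr1:128359706-128359825, minus strand (Mcm6) and chr6:88898831-88898960, minus strand (Mcm2).
Mcm5: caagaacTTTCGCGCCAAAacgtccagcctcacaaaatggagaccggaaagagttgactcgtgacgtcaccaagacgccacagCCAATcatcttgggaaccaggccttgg
Mcm6: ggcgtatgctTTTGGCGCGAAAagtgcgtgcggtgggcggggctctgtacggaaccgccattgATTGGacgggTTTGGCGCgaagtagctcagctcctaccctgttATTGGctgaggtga
Mcm2: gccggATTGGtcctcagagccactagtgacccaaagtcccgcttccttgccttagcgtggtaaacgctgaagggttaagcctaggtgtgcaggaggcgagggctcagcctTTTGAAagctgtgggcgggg

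Top2a and Cdc20 show the CCAAT and CHR letters of mitosis genes, and Cdk1 holds E2F, CCAAT and CHR together. They lie at chr11:99024190-99024299, minus strand (Top2a), chr4:118437353-118437423, minus strand (Cdc20) and chr10:69352939-69353052, minus strand (Cdk1).
Top2a: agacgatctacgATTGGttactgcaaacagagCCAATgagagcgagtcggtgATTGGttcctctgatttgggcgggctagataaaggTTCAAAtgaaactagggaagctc
Cdc20: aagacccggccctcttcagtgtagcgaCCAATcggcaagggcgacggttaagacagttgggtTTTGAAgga
Cdk1: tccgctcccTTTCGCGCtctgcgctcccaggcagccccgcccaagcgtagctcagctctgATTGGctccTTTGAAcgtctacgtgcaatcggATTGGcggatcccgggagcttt

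The 4 inhibitors had a median log2 fold change of 0.27 in CD24negTomato+, with 1 negative value. With the block 4.34% of all genes tested were higher, and so was 1 of the inhibitors. This was Cdkn1a, which encodes p21 (chr17:29090976-29100727, plus strand), with 7616, 6586 and 6704 in CD24negTomato+ and 4353, 3241 and 4134 in Tomatoneg. Every CD24negTomato+ library was above every Tomatoneg library, and the mean was 1.78 times higher. The log2 fold change of Cdkn1a was 0.84 (SE 0.21, adjusted p = 0.105, and 0.0257 with the block).

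Cdkn1b, which encodes p27, was 842, 733 and 1065 against 877, 625 and 448, with overlapping groups (log2 fold change 0.47, adjusted p = 0.48). Cdkn1c, which encodes p57, was 435, 355 and 174 against 936, 197 and 128, and Tomatoneg replicate 1 exceeded all other libraries (log2 fold change 0.059, adjusted p = 0.978). That fold change turned negative with library totals made equal (-0.14) and with quantile normalization (-0.019). Cdkn2c, which encodes p18, an inhibitor of Cdk4 and Cdk6, was 45.2, 111 and 69.99 against 40.7, 212 and 192. It was lower in pairs 2 and 3 and about level in pair 1 (log2 fold change -0.74, adjusted p = 0.641).

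**Figure D5:**
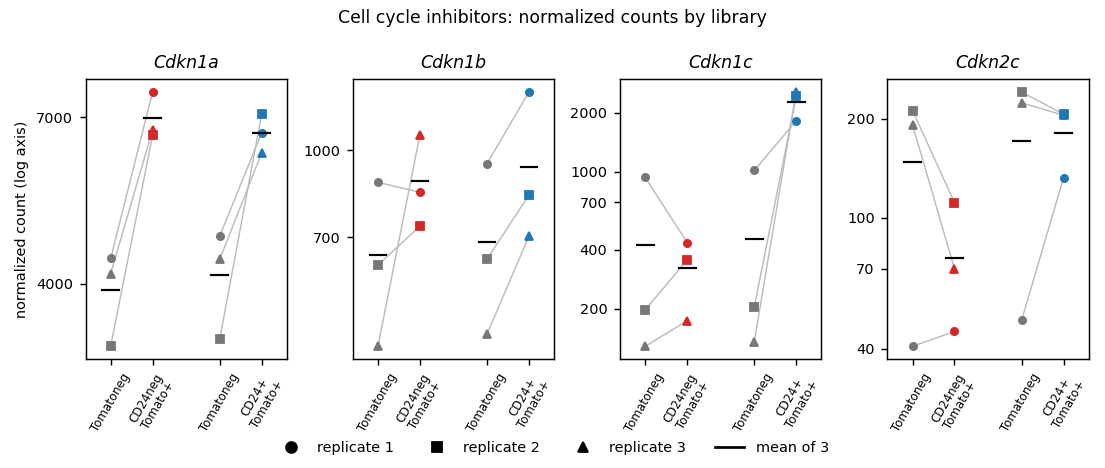
Normalized counts (vertical log axis) of the 4 Cdk inhibitors in each library, drawn as for the S phase and mitosis genes: left pair from the CD24negTomato+ table, right pair from the CD24+Tomato+ table, grey lines joining same-numbered libraries, bars at the mean of 3. Cdkn1a lies higher in all Tomato+ libraries, and Cdkn1c lies at 1825, 2425 and 2559 in CD24+Tomato+ against 1016, 203 and 136 in Tomatoneg.

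In CD24+Tomato+ cells, 1 of the 50 members was significantly higher (2.0% of members, against 8.02% of all genes tested) and 0 were lower (4.89% of all genes tested). At an unadjusted p under 0.05, 3 members were higher and 0 lower, against 2265 and 1598 of all 13874 genes tested. With the block 3 were higher (10.8% of all genes tested) and 0 lower (9.95% of all genes tested). In 4 members every CD24+Tomato+ library was above every Tomatoneg library, as in 21.6% of all genes tested, and in 0 below, as in 14.4% of all genes tested. In all 3 same-numbered pairs 6 members were lower and 8 higher, against 24.1% and 34.3% of all genes tested.

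The member past the threshold was Cdkn1c (chr7:143458339-143461050, minus strand). It measured 1825, 2425 and 2559 in CD24+Tomato+ replicates 1, 2 and 3 and 1016, 203 and 136 in Tomatoneg. The CD24+Tomato+ libraries were close together, Tomatoneg replicate 1 was several times higher than the other Tomatoneg libraries, and the groups did not overlap. Cdkn1c rose by 2.88 on the log2 scale (SE 0.69, adjusted p = 0.0355, and 0.0181 with the block). Leaving out any CD24+Tomato+ library (adjusted p from 0.0925 to 0.145), Tomatoneg replicate 2 (0.0983) or Tomatoneg replicate 3 (0.0658) lost the call, and leaving out Tomatoneg replicate 1 gave a log2 fold change of 3.75 (adjusted p = 0.001). Cdkn1c is an imprinted gene and overlaps the antisense gene Gm44732 on the other strand.

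Cdkn1a was 6639, 7062 and 6202 in CD24+Tomato+ against 4691, 3318 and 4340.1 in Tomatoneg, without overlap (log2 fold change 0.70, adjusted p = 0.071, and 0.0304 with the block). Cdkn1b was 1269, 832 and 704 against 946, 640.4 and 471, higher in each pair but with overlapping groups (log2 fold change 0.46, adjusted p = 0.448). Cdkn2c was 132, 207 and 205 against 48.8, 242 and 224 (log2 fold change 0.36, -0.25 with quantile normalization, adjusted p = 0.772), with Tomatoneg replicate 1 the lowest library.

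The 15 replication genes had a median log2 fold change of -0.079 in CD24+Tomato+ (0.013 with quantile normalization), ranging from -0.60 to 0.56, and 0 passed with or without the block. Mcm2 had the most negative fold change of all members, -0.60 (95% interval -1.36 to 0.16, adjusted p = 0.279), with 1039.7, 1192 and 1769 against 2698, 1357 and 2086 and was lower in each pair, although CD24+Tomato+ replicate 3 exceeded Tomatoneg replicate 2. Mcm5 was 1375, 1905 and 3154 against 1908, 1836 and 3234, Mcm7 was 1326, 1718 and 2594 against 1324, 1855 and 2836, and Uhrf1 was 1047, 1229 and 1856 against 888, 1464 and 2352. The groups of these genes overlapped, and the 95% intervals of their log2 fold changes ran from -1.003 to 0.70 for Mcm5, from -0.91 to 0.76 for Mcm7 and from -1.04 to 0.80 for Uhrf1. Pcna was 1679, 1794 and 2998 against 2239, 2332 and 2818 (log2 fold change -0.23, 95% interval -0.87 to 0.40). Cdt1 (-0.52) and Rrm2 (-0.46) were also among the 5 most negative fold changes. Cdt1 was 489.7, 658 and 744 against 698, 851 and 1195, and Rrm2 was 484, 522 and 893 against 551, 964 and 1097, each lower in all 3 pairs with overlapping groups.

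The mitosis genes had a median of 0.26, with 14 of 17 fold changes positive, where 8071 of all 13874 genes tested were positive. With the block 1 of them passed, where 10.8% of all genes tested were higher, so this count is no result about the group. The gene that passed was Top2a, with 2621, 2936 and 2632 in CD24+Tomato+ against 1161, 2565 and 1141 in Tomatoneg. The CD24+Tomato+ libraries were nearly equal and all above Tomatoneg, of which replicate 2 came closest (log2 fold change 0.86, SE 0.33, adjusted p = 0.143, and 0.0438 with the block). With the block and centring on length together, the adjusted p of Top2a was 0.061, and that of Cdkn1a was 0.0697.

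The largest positive fold changes among mitosis genes were those of Cenpf, Bub1 and Kif11. Cenpf, a kinetochore protein, was 253, 293 and 109 against 80.9, 134 and 22.99 (log2 fold change 1.65, adjusted p = 0.207), higher in each pair, with low values in replicate 3 of both populations. Bub1 was 167, 153 and 181 against 13.97, 151 and 86.3 (1.52, adjusted p = 0.301), and its narrow lead over Tomatoneg replicate 2 contrasts with a wide one over replicate 1. Kif11, the motor that pushes spindle poles apart, was 309.9, 238 and 252 against 201, 260 and 38.3 (1.06, adjusted p = 0.394), and only Tomatoneg replicate 3 stood far below. Tpx2, the most negative of the group, was 565, 683 and 675 against 1506, 807 and 643 (-0.53, adjusted p = 0.375). Mki67 was 1947, 1845 and 963 against 1892, 2162 and 192 (0.71, adjusted p = 0.652), and its fold change was -0.42 without Tomatoneg replicate 3.

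Cyclins and Cdks had a median of 0.095 in CD24+Tomato+, and 0 passed with or without the block. Cdk1 was 804, 1185 and 1579 against 492, 1318 and 1481 (log2 fold change 0.22, 95% interval -0.87 to 1.30), and Ccnb1 was 756, 884 and 1083 against 619.8, 1044 and 1319 (-0.08, -0.84 to 0.68). In both genes Tomatoneg replicate 1 was the lowest library of the table. Ccnd1 was 1976, 2457 and 3502 against 1197, 3869 and 5132 (-0.16, -1.40 to 1.08), and Ccnd2 was 2894, 2882 and 1994 against 1352, 2311 and 2912 (0.29, -0.47 to 1.04). Ccne2 was 83.1, 70.9 and 111 against 48.5, 86.2 and 19.1 (0.99, adjusted p = 0.408), a gene of few counts, and Ccne1 was 131, 184 and 349 against 212, 245 and 470.3 (-0.51, adjusted p = 0.566), lower in each pair. E2f1 was 151, 213 and 312 against 216, 197 and 267 (-0.057, -1.002 to 0.89), and Foxm1 was 507, 587 and 808 against 139, 724 and 629.6 (0.64, adjusted p = 0.557), with Tomatoneg replicate 1 again the lowest library for Foxm1. The median over all members was 0.45 in pair 1, -0.12 in pair 2 and -0.039 in pair 3, and most members (39 of 50, in the first table) were lower in Tomatoneg replicate 1 than in the mean of the other Tomatoneg libraries. With library totals made equal the medians of all genes and of the members were 0.17 and 0.10, and with quantile normalization -0.017 and 0.13.

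Beyond the 50 members, 117 other cell cycle genes were listed, of which 115 were tested in each table. In CD24negTomato+ 3 were lower and 0 higher (median -0.88), where 0.32% and 0.999% of all genes tested were called, and with the block 27 were lower and 0 higher (2.96% and 4.34% of all genes tested). The 3 were Dut, which clears dUTP from the nucleotide pool (106, 144 and 191 against 802, 759 and 1001, log2 fold change -2.56, adjusted p = 0.0164), Ncapd2, a condensin subunit (326, 545 and 675 against 2361, 2298 and 2822, -2.33, adjusted p = 0.0174), and Racgap1, needed for cytokinesis (193, 323 and 374 against 1069, 1154 and 1385, -2.06, adjusted p = 0.0325). All 3 were separated between groups.

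In CD24+Tomato+, 1 of these 115 genes was lower and 2 were higher, with or without the block, and the median was 0.082. Over all genes tested 4.89% were lower and 8.02% higher, and with the block 9.95% and 10.8%, so these counts of 1 and 2 are no result about the list. Cdkn2b, which encodes the Cdk4 and Cdk6 inhibitor p15, fell from 3469, 2761 and 2882 in Tomatoneg to 1198, 1023 and 1034 (log2 fold change -1.48, adjusted p = 0.0069). Ccnd3, the third D cyclin, rose from 893, 863 and 847 to 1626, 1606 and 1837 (0.96, adjusted p = 0.021). Btg2, an antiproliferative gene, rose from 1042, 1876 and 2111 to 4542, 6214 and 5065 (1.70, adjusted p = 0.0148). None of these genes overlapped between groups, and Btg2 varied most within Tomatoneg. In CD24negTomato+ their fold changes were 0.14 (Cdkn2b), 0.30 (Ccnd3) and 1.04 (Btg2), with adjusted p = 0.752, 0.504 and 0.166.

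Markers of several other cells moved with the populations. Of all genes tested, 10.6% were lower and 14.7% higher in every CD24negTomato+ library, and 14.4% and 21.6% in every CD24+Tomato+ library. Shares with the block were 2.96% lower and 4.34% higher in CD24negTomato+, and 9.95% and 10.8% in CD24+Tomato+. The summed normalized count of 8 crypt stem cell markers was 4763 to 6556 in CD24negTomato+ against 11836 to 31938 in Tomatoneg, with 7 of 8 markers lower in every library and 0 at 0. In CD24+Tomato+ the sum, to which Olfm4 gave 8908 to 14987 and 8003 to 24649, was 20779 to 24745 against 12786 to 32788. There 2 of 8 stem cell markers, Rgmb and Sox9, were higher in every library and 0 lower, beside 21.6% and 14.4% of all genes tested. The count of 2 is near that share, so it is no result about stem cells. With the block 3 of the 8 were higher (10.8% of all genes tested), and the median log2 fold change was 0.63. The 9 lymphocyte markers, of cells that also divide, summed to 653 to 1467 in CD24negTomato+ and 487 to 587 in CD24+Tomato+, against 2996 to 11789 and 3219 to 12061 in Tomatoneg. In both comparisons 8 of the 9 were lower in every Tomato+ library. Goblet markers were higher in every library of both Tomato+ populations (8 of 8). With the block, 5 of 8 Paneth markers and 6 of 6 tested tuft markers were lower in CD24negTomato+, 6 of 8 enteroendocrine markers were higher, and 1 of 8 enterocyte markers was higher. Without the block 0 of the 8 enterocyte markers passed in CD24negTomato+, and that 1 marker is no result about enterocytes. In CD24+Tomato+ 8 of 8 Paneth, 7 of 8 tuft and 8 of 8 enteroendocrine markers were higher with the block, and 8 of 8 enterocyte markers were lower. Endocrine progenitor markers were higher with the block in 2 of 7 and 7 of 7 cases in CD24negTomato+ and CD24+Tomato+. B cell and plasma cell markers were lower with the block in 3 of 6 tested and 3 of 7. The part of these cells in the values of the cell cycle genes was not tested.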

How the data were processed

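Poly-A RNA of 9 libraries was sequenced by the authors. Per the submitters' processing notes and the names of the tables, counts were estimated with kallisto 0.44.0 on GRCm38 and normalized with DESeq2; bcl2fastq 2.19 and sleuth are also named. The deposited values are a signal, gene counts scaled within each table of 6 libraries by a factor that also differs between genes, and not whole reads, so depths are approximate and a count test was not used, although the authors tested genes with DESeq2. Replicates are labelled as biological; whether they were separate mice is not given, and p values measure the spread between these samples.

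Of each table, genes averaging 10 or more over the 6 libraries entered a limma fit (version 3.58.1, R 4.3.3; eBayes with trend) on log2(normalized count + 1), without a block. The members and lists were chosen with earlier results of these data known. All members could be named. Values by library were given for those past the threshold, for 12 chosen by name, and for the 5 largest rises and falls in each comparison; of the other cell cycle genes, up to 3 rises and 3 falls past the threshold were named.

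Replicate numbers come from the sample labels. Correlations of deviations from group means in same-numbered libraries were 0.30, 0.29 and 0.34 for CD24negTomato+ and 0.28, 0.18 and 0.38 for CD24+Tomato+. From these same data the numbers were taken to pair the libraries. The difference between long and short transcripts had 1 sign in replicate 1 of every population and the other sign in replicate 3. What same-numbered libraries share was not tested. Alternatives were other pseudocounts (0.1, 10), filters, scalings, the replicate block, length centring and leaving out libraries. Positions and lengths are from GENCODE M21. Python 3.11.15, pandas and matplotlib were used for the rest.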

Additional observations from a re-analysis of the deposited data

Results flagged for a closer look

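A set of 3 members moved one way in all 3 same-numbered pairs of CD24negTomato+ and Tomatoneg libraries and the other way in all 3 pairs of CD24+Tomato+ and Tomatoneg libraries. The difference between the comparisons was not tested. How many of all genes moved in this way was not counted, so the count of 3 is no result about the members. Of all genes tested, 23.6% were lower in all 3 pairs in CD24negTomato+, and 34.3% were higher in all 3 pairs in CD24+Tomato+. Top2a had a log2 fold change of -0.86 in CD24negTomato+ and 0.86 in CD24+Tomato+. For Cdk4 the values were -1.42 and 0.44, with 891, 1330.4 and 1951 in CD24negTomato+ against 2217, 3566 and 5586, and 3506, 5334 and 6623 in CD24+Tomato+ against 2362, 3609 and 5797. For Cdk2 they were -1.07 and 0.20, with 223, 285 and 376 against 463, 659 and 724, and 625, 706 and 959 against 514, 695 and 783. Cdk4 overlaps Tspan31 and Cdk2 overlaps Pmel, each on the other strand. Both comparisons use the same Tomatoneg libraries.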

How the results depend on the processing

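The count of members lower in CD24negTomato+ (4) was 2 with a pseudocount of 0.1, 7 with 10, 11 with quantile normalization, 30 with the replicate block and 32 with the replicate block and length centring, and 0 to 25 with libraries or replicate numbers left out. The count of members higher there (0) was 1 with the replicate block, with or without length centring, and 0 to 1 with libraries left out. All genes past the threshold in either direction (177) were 112 and 415 with pseudocounts of 0.1 and 10, 494 with quantile normalization, 274 with length centring, 979 with the replicate block, 1091 with both, and 0 to 1059 with libraries left out. In CD24+Tomato+ the members higher (1) were 2 with quantile normalization, 3 with the replicate block, 1 with the replicate block and length centring and 0 to 2 with libraries left out. All genes there (1791) were 2885 with the replicate block, 3260 with the replicate block and length centring, and 3 to 2478 with libraries left out. The cause of these changes was not tested. Fits with fewer samples have less power by construction, but not all counts fell. Without Tomatoneg replicate 1 the members lower in CD24negTomato+ rose from 4 to 25. All genes rose from 177 to 1059 there and from 1791 to 2478 in CD24+Tomato+. With only the 250 bases before the start, CHR was in 6 mitosis genes in place of 11. Length centring was chosen after seeing the data. Fold changes that changed sign were not past the threshold in any such setting. In CD24negTomato+ with quantile normalization Bub1 was -0.10 and Cdkn1c -0.019, and Cdkn1c was -0.14 with equal library totals. With libraries left out the ranges were -1.41 to 0.37 for Mki67, -0.63 to 1.08 for Bub1, -0.049 to 0.89 for Ccnd2, -0.52 to 0.91 for Cdkn1c and -0.082 to 0.81 for the inhibitors' median. In CD24+Tomato+ with quantile normalization Mcm5 was 0.013, Mcm7 0.055, Ccnd1 0.045, Cdkn2c -0.25, the replication median 0.013 and the median of the transcription factors 0.088. With libraries left out the ranges were -0.47 to 0.13 for Mcm5, -0.34 to 0.21 for Mcm7, -0.47 to 0.23 for Uhrf1, -0.42 to 1.33 for Mki67, -0.39 to 0.16 for Ccnb1, -0.79 to 0.26 for Ccnd1, -0.11 to 0.71 for Ccnd2, -0.29 to 0.51 for Cdk1 and -0.39 to 0.76 for Cdkn2c. The medians ranged over -0.34 to 0.23 for replication, -0.17 to 0.40 for mitosis, -0.29 to 0.31 for cyclins and Cdks, -0.16 to 0.20 for transcription factors and -0.26 to 0.32 for all members.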

Other observations

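The shared Tomatoneg libraries had different values in the 2 tables. The ratio of the first to the second table had a median over genes of 0.928, 0.976 and 0.952 in Tomatoneg replicates 1, 2 and 3. Among the members it was lowest for Foxm1 (0.831, 0.875 and 0.853) and highest for Cenpf (1.23, 1.29 and 1.26), so the scaling differed between genes. Of the 50 members, 15 overlap another protein-coding gene, 2 of them on the same strand.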
